A study of Homo sapiens with 15 samples.

Results

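GAPDH siRNA was set against non-silencing siRNA in HEK293T cells, a transformed line derived from human embryonic kidney. The 6 arrays compared, of 15 in the series, were chosen by their sample titles: 3 from cells given GAPDH siRNA and 3 from cells given an siRNA that matches no human gene. All cells of both groups, and those given LOC550643, Dcp2 or DcpS siRNA (3 arrays each), also received actinomycin D, an inhibitor of transcription, at 1 ug/mL for 4 h starting 48 h after transfection. The series text treats GAPDH as an unrelated comparison gene beside factors of mRNA decay. Whether the arrays of a group are independent cultures is not stated in the labels, and the p-values therefore cover the spread among these arrays alone, possibly a technical one.

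GAPDH oxidises glyceraldehyde 3-phosphate in the middle of glycolysis and passes the electrons to NAD+, which makes it a link between sugar breakdown and the redox state of the cell. The protein is abundant, and its transcript is widely used as a loading reference. Cells that sense glucose phosphates through the MondoA and MLX transcription factors adjust TXNIP and ARRDC4, alpha-arrestins that restrain glucose uptake.

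Levels were log2 values of 1 probe set per gene for 14884 genes, so a difference of 1 log2 unit is a doubling or a halving of signal on the array. A gene was called changed when its adjusted p, from limma's moderated test and corrected over all these genes, was under 0.05. Quantile normalization had been applied, so a shift shared by all transcripts could not be seen. The arrays resembled each other closely: over genes, the correlation was 0.991 to 0.993 between GAPDH siRNA arrays, 0.991 to 0.995 between non-silencing arrays and 0.985 to 0.992 across the groups. Because the RNA came from whole cultures, a lower level could reflect fewer cells of a kind or less RNA per cell. These cannot be told apart. Every array was taken after 4 h of actinomycin D. A difference in level before that block and a difference in decay during it therefore cannot be told apart either.

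The target was lower with GAPDH siRNA, and a small part of the transcriptome besides differed between the groups. GAPDH had 6.10, 6.11 and 5.69 log2 units in the GAPDH siRNA arrays, against 7.12, 7.17 and 7.30 in the non-silencing arrays. The third GAPDH siRNA array was the lowest, and the groups were well apart. The difference was -1.23 (95% interval -1.47 to -0.99, adjusted p = 2.70e-05). GAPDH ranged from 7.02 to 7.36 in the 9 arrays with the other targeting siRNAs, which overlapped the non-silencing arrays. The transcript has many processed pseudogenes, and signal from them under this probe set was not tested.

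Between the groups, 297 genes were called changed, which is 2.0% of those tested. Of these, 108 were higher (0.726%) and 189 lower (1.27%) with GAPDH siRNA. Every called gene had groups that did not overlap, but so did 17.3% of all genes. Probe sets with no gene name gave 72 further calls, 0.192% of those tested. Changes were modest: the median called difference was 0.51 among higher genes and -0.56 among lower genes, and 12 called genes reached 1 log2 unit, 4 of them higher and 8 lower. Over all genes the median difference was 0.00 and the range -1.29 to 1.32. When only the 6 arrays of these groups were fitted, 44 genes were called, 16 higher and 28 lower. Leaving out non-silencing array 2 left 139 calls, GAPDH siRNA array 1 left 146, non-silencing array 1 left 176 and GAPDH siRNA array 3 left 182.

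**Figure D1:**
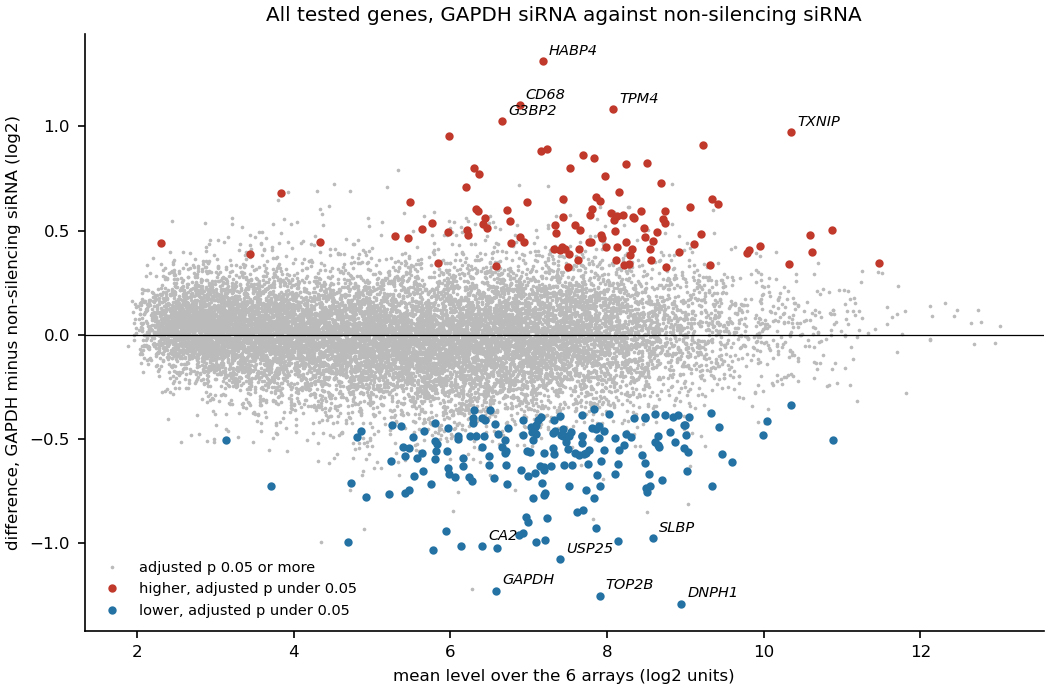
Each point is 1 of 14884 genes, with its mean log2 level over the 6 arrays on the horizontal axis and the log2 difference, GAPDH minus non-silencing siRNA, on the vertical axis. Red points are the 108 genes called higher and blue points the 189 called lower (adjusted p under 0.05), and grey points were not called.

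TOP2B, USP25 and DNPH1 fell about as far as GAPDH itself. DNPH1, which hydrolyses modified deoxynucleotides, had 8.39, 8.41 and 8.11 log2 units with GAPDH siRNA, against 9.84, 9.41 and 9.54 with non-silencing siRNA (difference -1.29, SE 0.12, adjusted p = 2.48e-05). TOP2B, the topoisomerase II form of non-dividing as well as dividing cells, had 7.30, 7.26 and 7.26 with GAPDH siRNA, against 8.67, 8.42 and 8.5 with non-silencing siRNA (difference -1.25, SE 0.10, adjusted p = 6.19e-06). USP25, a deubiquitinating enzyme, had 6.92, 6.80 and 6.84 with GAPDH siRNA, against 8.05, 7.90 and 7.84 with non-silencing siRNA (difference -1.08, adjusted p = 1.07e-05). For these 3 genes the highest GAPDH siRNA array lay far below the lowest non-silencing array. All 3 calls held under each of the 14 alternatives tried.

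SLBP, CD63, AGFG1 and MAF1 were also among the 15 lowest genes. SLBP, which binds the stem-loop at the end of histone mRNAs, had 8.15, 8.01 and 8.14 with GAPDH siRNA, against 9.10, 8.97 and 9.16 with non-silencing siRNA (difference -0.98, adjusted p = 1.84e-05). CD63, a tetraspanin of late endosomes and exosomes, had 6.80, 6.53 and 6.83 with GAPDH siRNA, against 7.71, 7.63 and 7.78 with non-silencing siRNA (difference -0.99, adjusted p = 4.95e-05). AGFG1, a protein with phenylalanine-glycine repeats like those of the nuclear pore, had 7.82, 7.38 and 7.71 with GAPDH siRNA, against 8.52, 8.68 and 8.69 with non-silencing siRNA (difference -0.99, adjusted p = 8.29e-05). The groups did not overlap for any of these 3 genes, and the second GAPDH siRNA array was the lowest of its group for each. MAF1, the repressor of RNA polymerase III, had 6.57, 6.21 and 6.41 with GAPDH siRNA, against 7.44, 7.31 and 7.33 with non-silencing siRNA (difference -0.96, adjusted p = 5.68e-04).

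SYT17, PLLP, NCR3LG1 and AMOT were among the 15 lowest genes too. SYT17, an atypical synaptotagmin, had 5.64, 5.58 and 5.68 with GAPDH siRNA, against 6.91, 6.54 and 6.5 with non-silencing siRNA (difference -1.02, adjusted p = 5.99e-05). PLLP, or plasmolipin, a tetraspan protein of myelin and epithelia, had 6.26, 5.87 and 6.10 with GAPDH siRNA, against 7.31, 7.14 and 6.86 with non-silencing siRNA (difference -1.02, adjusted p = 5.50e-04). NCR3LG1, a ligand of the natural killer cell receptor NKp30, had 6.66, 6.84 and 6.30 with GAPDH siRNA, against 7.79, 7.56 and 7.43 with non-silencing siRNA (difference -0.99, adjusted p = 0.00243). In none of these genes did the groups overlap. AMOT, a tight junction regulator of YAP and the last of these, had 6.47, 6.66 and 6.21 with GAPDH siRNA, against 7.71, 7.40 and 7.09 with non-silencing siRNA (difference -0.95, adjusted p = 0.0178). AMOT lost its call without GAPDH siRNA array 1 or 3 or non-silencing array 1 or 2 (adjusted p 0.0641 to 0.0881 across the alternatives in which it was lost).

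Noncoding RNAs stood among the lowest genes with less certain values. HCG11 had 5.50, 5.08 and 5.18 with GAPDH siRNA, against 6.27, 6.63 and 5.97 with non-silencing siRNA (difference -1.04, adjusted p = 0.0402). ZEB2-AS1, transcribed antisense to ZEB2, had 4.26, 4.03 and 4.27 with GAPDH siRNA, against 5.38, 5.42 and 4.75 with non-silencing siRNA (difference -0.998, adjusted p = 0.0402). Both lost the call without any one of the GAPDH siRNA arrays and without non-silencing array 1 or 2, and a second, dimmer ZEB2-AS1 probe set differed by -0.08. The mean of its probe sets differed by -0.54. Small RNAs, which were kept out of the ranking, gave 5 called genes: MIR329-2 (0.44), MIR518E (0.44), MIR4274 (-0.73), MIR4522 (-0.66) and SCARNA22 (-0.34).

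Genes called higher included HABP4 and G3BP2, which encode RNA-binding proteins of stress granules. HABP4 had 7.85, 7.99 and 7.67 log2 units with GAPDH siRNA, against 6.52, 6.64 and 6.40 with non-silencing siRNA (difference 1.32, 95% interval 1.12 to 1.51, adjusted p = 3.42e-06). G3BP2 had 7.28, 7.06 and 7.17 with GAPDH siRNA, against 5.75, 6.39 and 6.30 with non-silencing siRNA (difference 1.02, adjusted p = 0.00103). The first non-silencing array was the lowest for G3BP2, and its call was lost when only the 6 arrays were fitted (adjusted p = 0.0549). Of the 11 stress granule genes measured of 23 listed, these 2 rose (18.2%, against 0.726% of all genes) and 0 fell. In this list 4 differences were positive. The list median was -0.10, with G3BP1, the close relative of G3BP2, at 0.05 and CAPRIN1, its partner, at -0.11.

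CD68, a heavily glycosylated lysosomal membrane protein abundant in macrophages, was higher. Its arrays read 7.49, 7.50 and 7.32 with GAPDH siRNA, against 6.42, 6.41 and 6.17 with non-silencing siRNA (difference 1.10, SE 0.11, adjusted p = 3.60e-05). Of 19 lysosomal genes measured of 30 listed, CD68 rose and CD63 fell (10.5%, against 2.0% of all genes), and the median difference was 0.06. Of the blood cell markers, 3 of 10 listed were measured, and the mean over them was 5.49 to 5.67 in the GAPDH siRNA arrays, against 5.01 to 5.07 in the non-silencing arrays. Without CD68, CD14 was at 3.57 with GAPDH siRNA and 3.52 with non-silencing siRNA, and SPI1 was at 5.65 with GAPDH siRNA and 5.28 with non-silencing siRNA; neither was called (adjusted p = 0.917 and 0.279). Other markers of blood cells on the list, among them PTPRC, were not analysed here, and their part in the CD68 result was not tested.

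**Figure D2:**
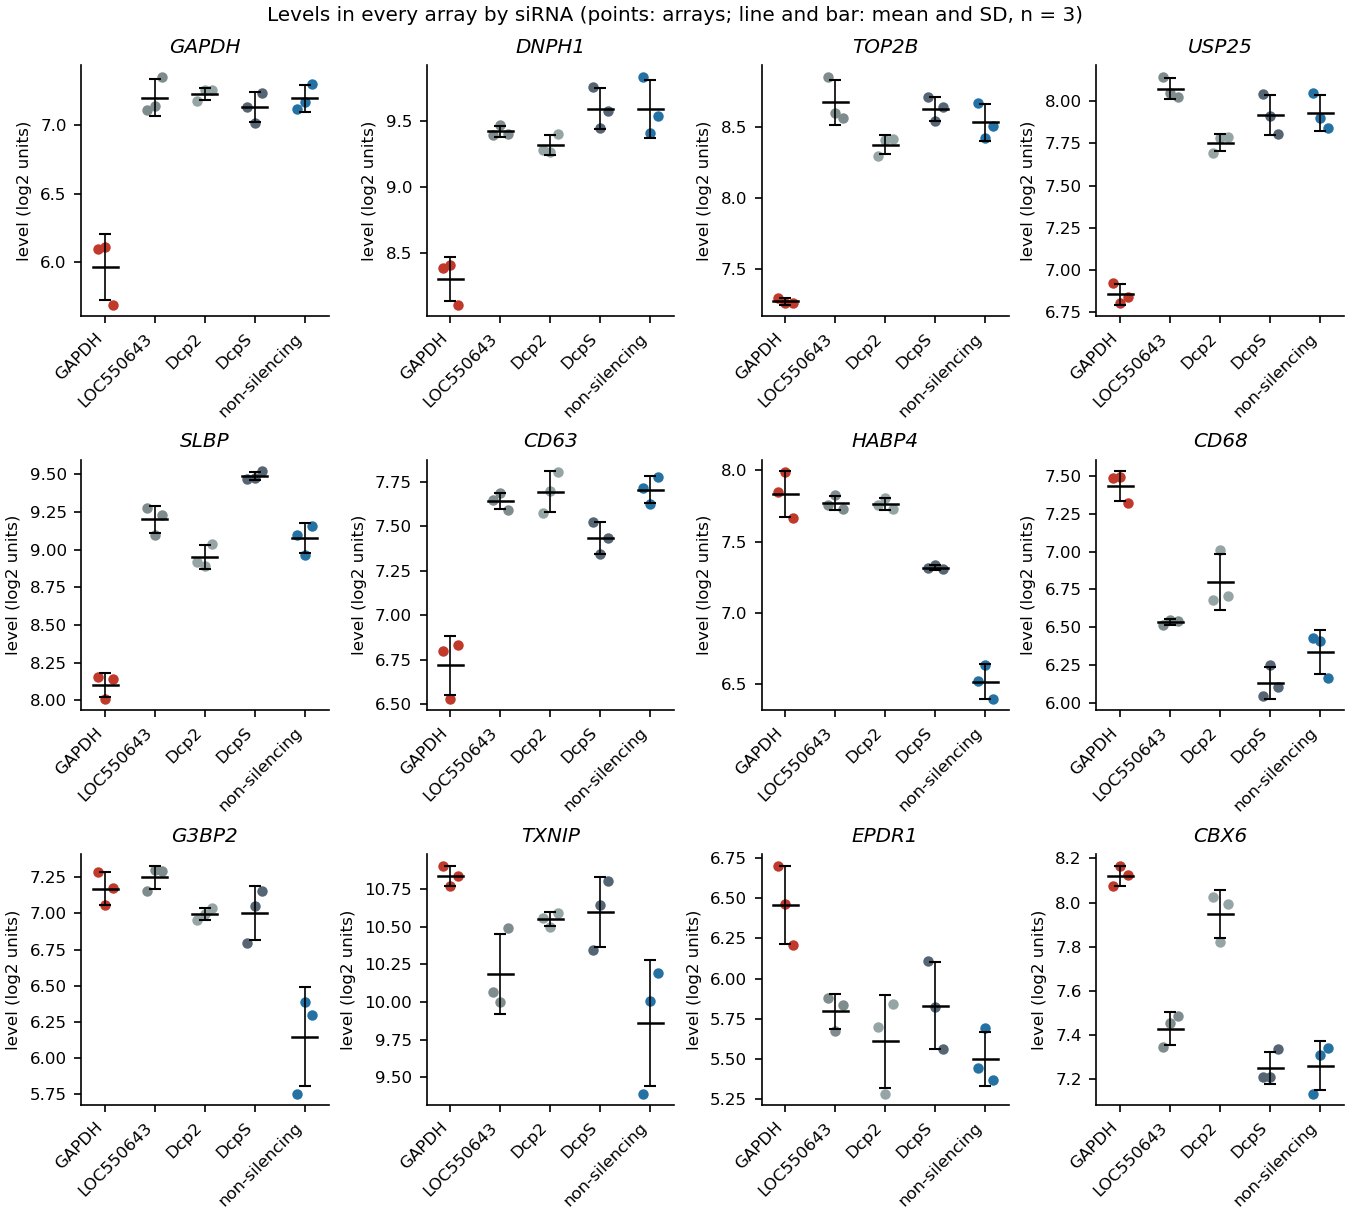
Log2 level of 12 named genes in every array, with the 3 GAPDH siRNA arrays at the left of each panel, then the LOC550643, Dcp2 and DcpS siRNA arrays and the non-silencing arrays at the right. Points are arrays and lines with bars are means and SDs (n = 3 each); GAPDH, DNPH1, TOP2B, USP25, SLBP and CD63 were lower with GAPDH siRNA than in every other array, whereas HABP4 and G3BP2 were higher in all 4 targeting groups than in the non-silencing group.

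TPM4, RHOB and RHEBL1 were also among the 15 highest genes. TPM4, a tropomyosin that stabilises actin filaments, had 8.73, 8.58 and 8.55 with GAPDH siRNA, against 7.35, 7.49 and 7.76 with non-silencing siRNA (difference 1.08, adjusted p = 5.99e-05). RHOB, a short-lived small GTPase of endosomes, had 9.76, 9.36 and 9.93 with GAPDH siRNA, against 8.33, 8.91 and 9.08 with non-silencing siRNA (difference 0.91, SE 0.21, adjusted p = 0.0402). The RHOB arrays were widely spread, and the call was lost without GAPDH siRNA array 1 or 3 or non-silencing array 1 or 2 (adjusted p 0.0870 to 0.157 across the alternatives in which it was lost). RHEBL1, a relative of the mTORC1 activator RHEB, had 6.57, 6.83 and 6.71 with GAPDH siRNA, against 5.88, 5.84 and 5.99 with non-silencing siRNA (difference 0.80, adjusted p = 0.00275).

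MED11, CBX6, EMC6 and ZNF385A were among the 15 highest genes. MED11, a subunit of the Mediator complex, had 7.76, 7.62 and 7.64 with GAPDH siRNA, against 6.82, 6.72 and 6.82 with non-silencing siRNA (difference 0.89, adjusted p = 5.99e-05). CBX6, a Polycomb chromobox protein, had 8.07, 8.17 and 8.12 with GAPDH siRNA, against 7.13, 7.31 and 7.34 with non-silencing siRNA (difference 0.86, adjusted p = 5.99e-05), and a second CBX6 probe set differed by 0.28. EMC6, a subunit of the complex that inserts proteins into the endoplasmic reticulum membrane, had 7.90, 7.98 and 7.90 with GAPDH siRNA, against 7.05, 7.16 and 7.17 with non-silencing siRNA (difference 0.80, adjusted p = 5.99e-05). For these 3 genes the arrays of each group lay close together and far from the other group. ZNF385A, a zinc finger protein, had 8.30, 8.28 and 8.19 with GAPDH siRNA, against 7.57, 7.22 and 7.42 with non-silencing siRNA (difference 0.85, adjusted p = 7.22e-04).

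As for G3BP2, the first non-silencing array was the lowest of its group for OGFR, KLHDC10, ANKRD52 and TXNIP. It was also the lowest for TPM4, RHOB, CBX6 and EMC6 above. OGFR, the opioid growth factor receptor, had 7.51, 7.56 and 7.74 with GAPDH siRNA, against 6.26, 6.90 and 7.01 with non-silencing siRNA (difference 0.88, adjusted p = 0.00954). KLHDC10, a kelch protein that selects substrates for a ubiquitin ligase, had 8.93, 8.99 and 8.87 with GAPDH siRNA, against 7.79, 8.18 and 8.34 with non-silencing siRNA (difference 0.82, adjusted p = 0.00847). ANKRD52, a regulatory subunit of protein phosphatase 6, had 8.54, 8.77 and 8.64 with GAPDH siRNA, against 7.61, 8.09 and 7.79 with non-silencing siRNA (difference 0.82, adjusted p = 0.00327). TXNIP, an alpha-arrestin, is described below. OGFR, KLHDC10, ANKRD52 and TXNIP each lost the call when only the 6 arrays were fitted (adjusted p 0.0559 to 0.102). EPDR1, an ependymin-related secreted protein, had 6.70, 6.47 and 6.21 with GAPDH siRNA, against 5.44, 5.69 and 5.37 with non-silencing siRNA (difference 0.96, adjusted p = 0.00526).

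Among the glycolytic enzymes other than the target, HK2 passed the test. Of 24 glycolytic genes listed, 9 were measured: GAPDH and HK2 fell (22.2%, against 1.27% of all genes called lower) and 0 rose. HK2, the hexokinase isoform that traps glucose in growing cells, had 6.39, 6.47 and 6.37 with GAPDH siRNA, against 6.96, 7.02 and 6.96 with non-silencing siRNA (difference -0.57, adjusted p = 0.00458). The arrays of each group lay close together, and the groups were apart. HK1 differed by -0.09, GPI by -0.06, TPI1 by -0.14, PGK1 by -0.14, LDHA by -0.08 and LDHB by -0.05, and none of these was called. PGAM1, which moves the phosphate of 3-phosphoglycerate downstream of GAPDH, had 9.25, 9.11 and 8.94 with GAPDH siRNA, against 8.45, 8.45 and 8.81 with non-silencing siRNA. The groups did not overlap, and the difference of 0.53 missed the threshold (adjusted p = 0.0634). PGAM1 has a near-identical relative in PGAM4, whose share of this signal was not tested. Limma called 0 genes among 7 of the pentose phosphate pathway, 12 of NAD and reducing shuttles, and 11 of pyruvate and citrate metabolism, where 0, 1 and 1 had an unadjusted p under 0.05.

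The glucose-responsive genes divided. TXNIP, the arrestin that binds thioredoxin, had 10.90, 10.77 and 10.84 with GAPDH siRNA, against 9.39, 10.01 and 10.19 with non-silencing siRNA (difference 0.97, SE 0.18, adjusted p = 0.00798). A second TXNIP probe set differed by 0.93. ARRDC4, its close relative, had 9.77, 9.44 and 9.73 with GAPDH siRNA, against 8.71, 9.13 and 9.30 with non-silencing siRNA; the groups did not overlap, and the difference of 0.60 missed the threshold (adjusted p = 0.0943). MLXIPL, the glucose-responsive factor of liver also known as ChREBP, had 5.96, 6.27 and 6.30 with GAPDH siRNA, against 6.88, 6.94 and 6.59 with non-silencing siRNA (difference -0.63, adjusted p = 0.0127), a call lost without GAPDH siRNA array 1 or non-silencing array 1 or 2. All 9 listed genes were measured. TXNIP rose and MLXIPL fell (22.2%, against 2.0% of all genes), and the median difference was 0.02. ARRDC3 differed by 0.22, MLX by 0.11 and MLXIP, which encodes MondoA, by 0.02.

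The promoters of TXNIP and ARRDC4 are shown because MondoA and its partner MLX are known to act on these genes through paired E boxes. The sequences are the 250 bases before the first listed start of each gene in RefSeq, build GRCh38.p14, at chr1:145996580-145996829 on the minus strand for TXNIP and chr15:97960453-97960702 on the plus strand for ARRDC4. Capitals mark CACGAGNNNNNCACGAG in TXNIP, which starts 88 bases before the gene, and the E box CACGTG in ARRDC4, which starts 210 bases before it.
TXNIP: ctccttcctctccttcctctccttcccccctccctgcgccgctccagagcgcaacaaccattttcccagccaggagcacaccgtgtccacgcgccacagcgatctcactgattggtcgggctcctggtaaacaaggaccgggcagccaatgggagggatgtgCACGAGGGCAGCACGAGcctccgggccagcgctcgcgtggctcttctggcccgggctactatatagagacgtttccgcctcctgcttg
ARRDC4: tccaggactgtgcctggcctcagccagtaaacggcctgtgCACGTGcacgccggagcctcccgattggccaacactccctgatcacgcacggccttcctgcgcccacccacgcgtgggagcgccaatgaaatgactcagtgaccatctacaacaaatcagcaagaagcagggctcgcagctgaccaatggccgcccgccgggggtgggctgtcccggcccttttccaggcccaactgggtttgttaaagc
Both strands were searched, and CACGTG reads the same on each; it was in the windows of 3 of the 9 listed genes, ARRDC4, MLX and MXD4, and in 6.34% of 35116 windows of all genes. It was not in the TXNIP window. The longer motif was chosen after reading the TXNIP sequence, and 2 of all windows held it. These matches describe letters and are not evidence of binding.

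Immediate early genes respond within minutes and have short-lived mRNAs. Of 27 measured of 38 listed, RHOB rose and MYC fell (7.41%, against 2.0% of all genes), and 22 differences were positive with a median of 0.16. The list gave 4 calls with the replicate number as a block and 1 to 3 when 1 array was left out. MYC, the growth-promoting transcription factor, had 5.63, 5.71 and 5.79 with GAPDH siRNA, against 6.26, 6.52 and 6.40 with non-silencing siRNA (difference -0.68, adjusted p = 0.00321). ATF3 differed by 0.71, with 7.69, 7.25 and 7.89 in the GAPDH siRNA arrays against 6.17, 7.12 and 7.40 in the non-silencing arrays, so its groups overlapped and it was not called. JUN differed by 0.39, JUND by 0.59, KLF10 by 0.61 and DUSP1 by 0.52, and none was called. The first non-silencing array was the lowest of its group for ATF3, RHOB and JUN, and without it the list median was 0.09. From non-silencing siRNA the list median was 0.23 with LOC550643, 0.42 with Dcp2 and 0.10 with DcpS siRNA.

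Most sterol synthesis genes had negative differences. Of 15 measured of 23 listed, 14 differences were negative, with a median of -0.20. Of the 15, 2 were called lower, as were 1.27% of all genes. SQLE, the squalene epoxidase, had 9.33, 9.31 and 9.23 with GAPDH siRNA, against 9.68, 9.98 and 10.05 with non-silencing siRNA (difference -0.61, adjusted p = 0.00562). IDI1, the isomerase of isopentenyl units, had 7.60, 7.31 and 7.43 with GAPDH siRNA, against 7.77, 8.20 and 8.09 with non-silencing siRNA (difference -0.57, adjusted p = 0.0245). Groups were apart for both, and IDI1 lost its call without GAPDH siRNA array 2 or 3 or non-silencing array 2 or 3. Leaving out 1 array at a time left 1 to 3 calls in the list, and with only the 6 arrays fitted both genes lost their calls (limma adjusted p = 0.0797 for SQLE and 0.139 for IDI1).

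Carbonic anhydrases, which interconvert carbon dioxide and bicarbonate, gave 2 lower genes among 7 measured of 15 listed, with a median difference of -0.25. Of all genes, 1.27% were called lower. CA2, the cytosolic enzyme, had 6.0, 5.89 and 5.80 with GAPDH siRNA, against 7.20, 6.73 and 6.80 with non-silencing siRNA (difference -1.01, adjusted p = 5.68e-04). CA11, a catalytically inactive relative, had 7.23, 7.30 and 7.28 with GAPDH siRNA, against 7.73, 7.88 and 7.64 with non-silencing siRNA (difference -0.48, adjusted p = 0.00745). The groups did not overlap for either gene, and the first non-silencing array was the highest for CA2. CA11 lost its call when only the 6 arrays were fitted (adjusted p = 0.0902).

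Of 18 topoisomerase and repair genes measured of 29 listed, TOP2B and TOP3A fell (11.1%, against 2.0% of all genes). TOP3A, a type I topoisomerase, had 6.84, 6.67 and 6.60 with GAPDH siRNA, against 7.14, 7.34 and 7.30 with non-silencing siRNA (difference -0.56, adjusted p = 0.0244), a call lost without GAPDH siRNA array 2 or 3 or non-silencing array 2 or 3. The paralog TOP2A, which is tied to mitosis, differed by -0.14, and TOP1 by -0.22; neither was called. Of 39 ubiquitin-specific proteases measured of 44 listed, USP25 alone was called (2.56%), and USP28, its nearest relative, differed by -0.34 (limma adjusted p = 0.0877). HSPA4L, a chaperone of the HSP110 family, had 8.74, 8.59 and 8.78 with GAPDH siRNA, against 9.20, 9.29 and 9.26 with non-silencing siRNA (difference -0.55, adjusted p = 0.00315), the one call among 9 cytosolic chaperones (11.1%). This call was lost when only the 6 arrays were fitted (adjusted p = 0.0586).

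Limma called 0 members of several lists, given here with their number of genes at an unadjusted p under 0.05, which held for 13.6% of all genes tested. These were 14 decapping and P-body genes (median difference -0.07, 3 under 0.05 unadjusted), 17 of oxidative stress (1), 13 p53 targets (0), 20 apoptosis regulators (1), 14 hypoxia genes (2), 15 of endoplasmic reticulum folding (3) and 18 interferon genes (median -0.05, 1 under 0.05). Markers of fibroblasts and endothelium (5 measured) and of epithelium and hepatocytes (7 measured) had 0 calls too, with 1 and 2 under 0.05 unadjusted. DCP2, targeted elsewhere in the series, differed by 0.26. Of the 22 G1/S and replication genes, MCM2, a subunit of the replicative helicase, alone was called (4.55%, against 2.0% of all genes). It had 8.88, 8.87 and 8.80 with GAPDH siRNA, against 9.26, 9.19 and 9.28 with non-silencing siRNA (difference -0.39, limma adjusted p = 0.0200). In that list 17 of 22 differences were positive. Of the 6 arrays, leaving out any but GAPDH siRNA array 2 ended the MCM2 call. Reference genes had 0 calls among 6 measured, with 1 under 0.05 unadjusted: PPIA differed by -0.21, B2M by 0.13, HPRT1 by -0.05, TBP by -0.05 and EEF1A1 by 0.04. HEK293 cell genes had 0 calls among 9 measured, with 3 under 0.05 unadjusted, and their mean levels ran from 3.47 (STMN2) to 8.77 (KRT18) with GAPDH siRNA, against 3.32 (STMN2) to 8.69 (KRT18) with non-silencing siRNA. STMN2 lay below the array medians, and the 3 genes under 0.05 were IGFBP5 (-0.54), VIM (0.39) and KRT8 (0.32).

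**Figure D3:**
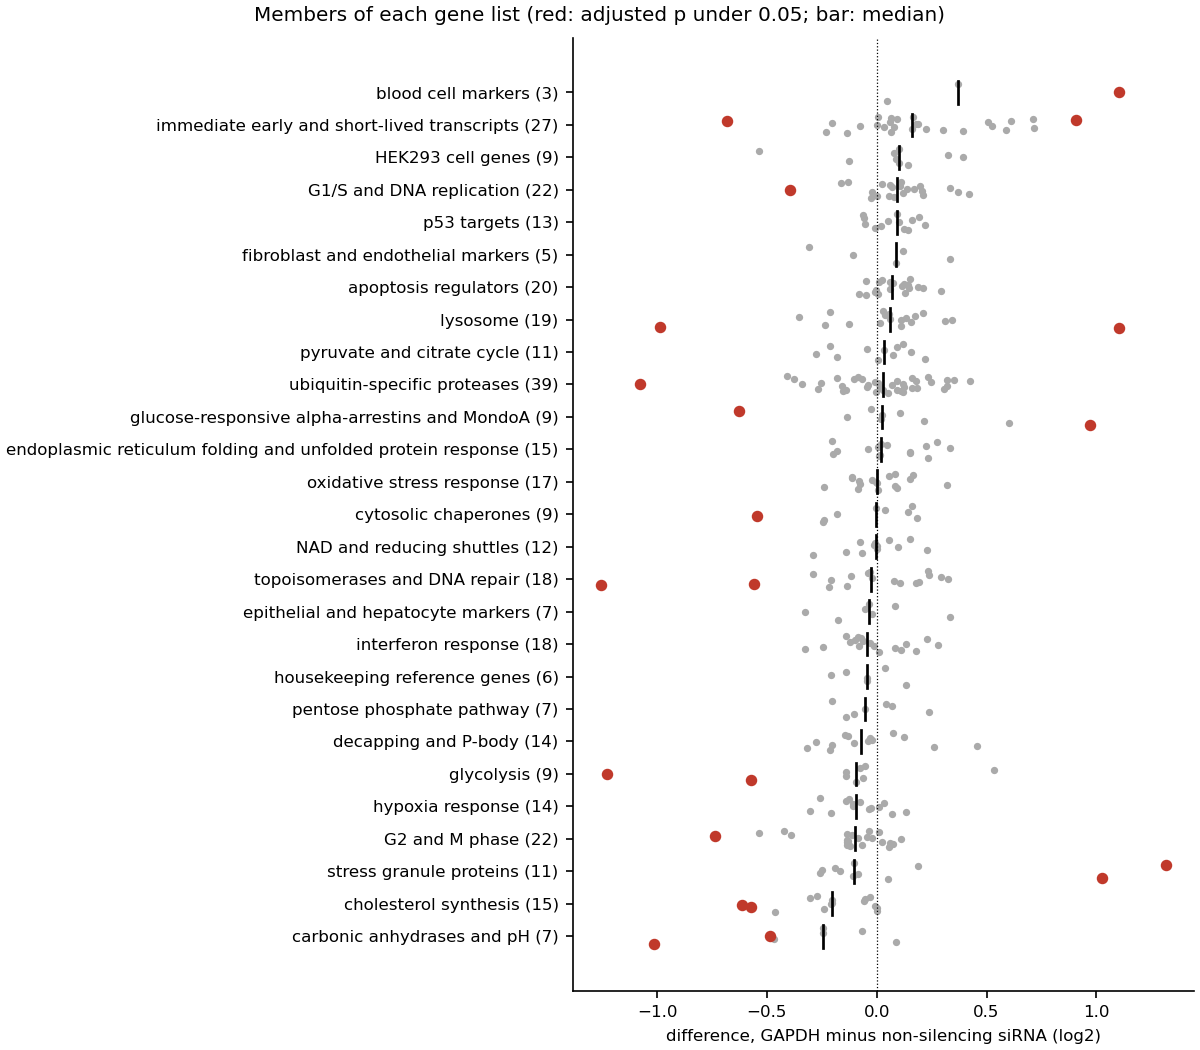
Each row is a gene list with its number of measured genes in brackets, and each point is 1 gene's log2 difference, GAPDH minus non-silencing siRNA. Red points passed an adjusted p under 0.05, black bars are list medians, and most points lie near 0 while GAPDH, TOP2B, USP25, HABP4 and CD68 lie near or beyond 1 log2 unit.

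GAPDH siRNA was also set against the mean of the 3 other targeting siRNAs, which asks where the response to it differs from that to LOC550643, Dcp2 and DcpS siRNA. This comparison shares its GAPDH siRNA arrays with the one above, and their values are given side by side. It called 593 genes (3.98%), 207 higher (1.39%) and 386 lower (2.59%), and 315 without GAPDH siRNA array 1 or 313 without array 2. The lowest genes included TOP2B, USP25, DNPH1, SLBP and AGFG1, and the highest included CD68, while HABP4, G3BP2 and TPM4 did not pass against that mean.

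TOP2B was at 7.30, 7.26 and 7.26 with GAPDH siRNA, against a range of 8.30 to 8.85 (median 8.56) in the 9 other arrays. Its difference was -1.25 from non-silencing siRNA and -1.28 from the other siRNAs (adjusted p = 2.88e-07 for the second). USP25 gave -1.08 and -1.06, DNPH1 -1.29 and -1.14, SLBP -0.98 and -1.11, AGFG1 -0.99 and -1.15, CD63 -0.99 and -0.87, and MAF1 -0.96 and -0.99, in the same order of comparisons. Of the 15 lowest genes, PLLP (-1.02 and -0.29), AMOT (-0.95 and -0.13) and HCG11 (-1.04 and -0.50) did not pass the second test (adjusted p = 0.142, 0.757 and 0.204). From non-silencing siRNA, PLLP differed by -1.13 with LOC550643 siRNA, and AMOT by -1.42 and HCG11 by -1.19 with DcpS siRNA. Against each other siRNA taken alone, TOP2B was lower by 1.10 to 1.39 and SLBP by 0.85 to 1.39, and every one of these was called. The siRNA sequences were not used here, and a match of the GAPDH siRNA to any of these transcripts was not tested.

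Higher genes divided into those called in both comparisons and those that were not. CD68 was 1.10 above non-silencing siRNA and 0.95 above the other siRNAs (adjusted p = 1.52e-05), and its 9 other arrays ranged from 6.04 to 7.01, below every GAPDH siRNA array. EPDR1 gave 0.96 and 0.71, CBX6 0.86 and 0.58, ZNF385A 0.85 and 0.44, and RHEBL1 0.80 and 0.60, all called in both. EPDR1 lost the second call without GAPDH siRNA array 1, and ZNF385A without array 1 or 2. CBX6 against Dcp2 siRNA alone differed by 0.17 and was not called. ZNF385A (0.20) and RHEBL1 (0.34) were not called against LOC550643 siRNA alone. From non-silencing siRNA, LOC550643 siRNA gave 0.65 for ZNF385A (limma adjusted p = 0.00725). Dcp2 siRNA gave 0.69 for CBX6 (limma adjusted p = 0.00200). HABP4 was 1.32 above non-silencing siRNA and 0.22 above the other siRNAs (adjusted p = 0.136), and LOC550643, Dcp2 and DcpS siRNA lay 1.25, 1.25 and 0.80 above non-silencing siRNA. Against DcpS siRNA alone HABP4 was 0.51 higher and was called (adjusted p = 0.00289). TPM4 gave 1.08 and -0.19, G3BP2 1.02 and 0.09, and MED11 0.89 and 0.08, and TPM4 lay 1.16, 1.32 and 1.34 above non-silencing siRNA with the 3 other siRNAs. Because every siRNA is set against the same 3 non-silencing arrays here, a low value in those arrays and a response to all targeting siRNAs cannot be told apart.

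**Figure D4:**
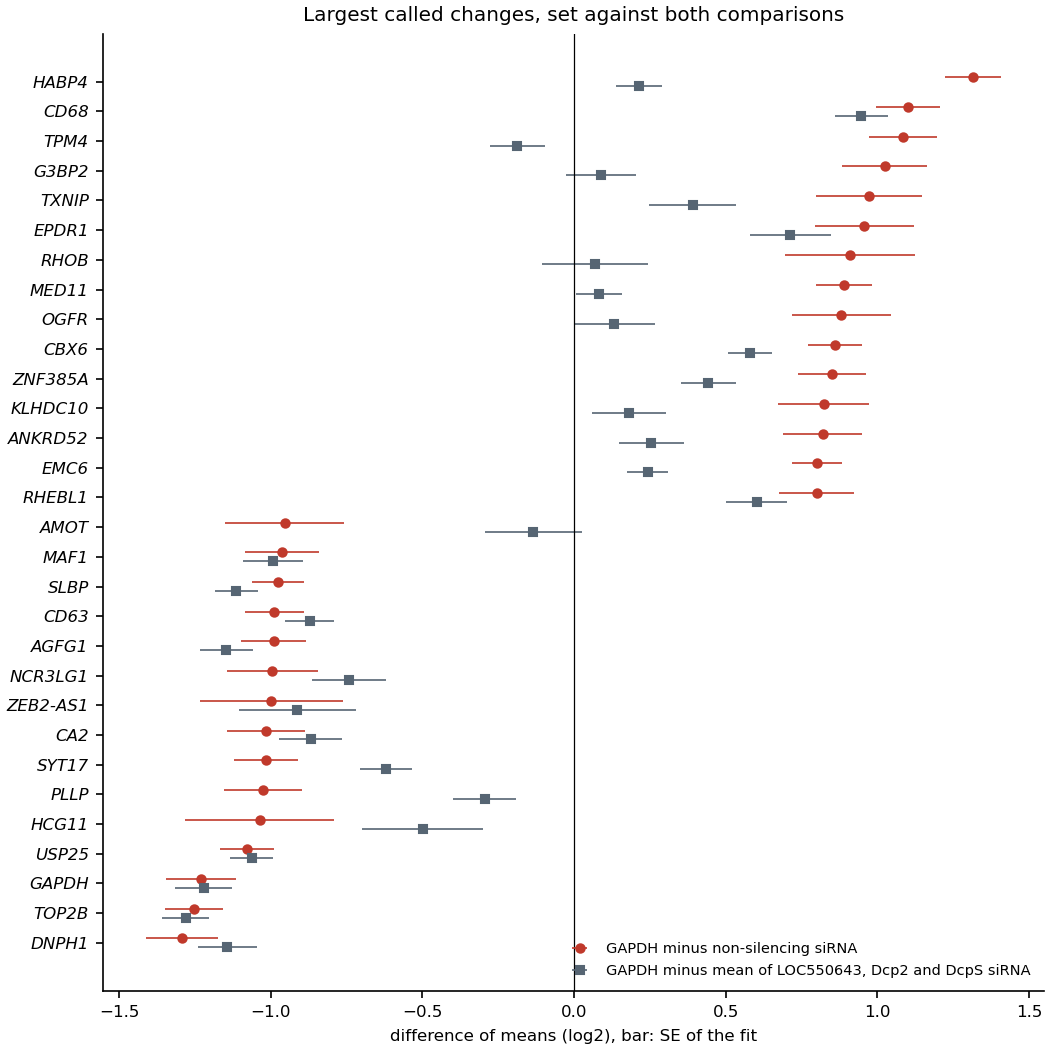
Differences (log2, bars are SE of the fit) of the 15 highest and 15 lowest called genes, as GAPDH minus non-silencing siRNA (red circles) and as GAPDH minus the mean of the other 3 targeting siRNAs (grey squares). TOP2B, USP25, SLBP and CD68 have both points far from 0, whereas HABP4, TPM4 and G3BP2 have grey squares near 0.

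Metabolic genes differed in part between these comparisons. TXNIP, 0.97 above non-silencing siRNA, was 0.39 above the other siRNAs (adjusted p = 0.157), and LOC550643, Dcp2 and DcpS siRNA gave 0.32, 0.69 and 0.73 above non-silencing siRNA. ARRDC4 was called here, at 0.77 (adjusted p = 0.00437). HK2 was at -0.57 and -0.16, and it did not pass the second test (adjusted p = 0.331). PGAM1 was 0.72 above the other siRNAs (adjusted p = 0.00159), whose 9 arrays ranged from 7.66 to 8.88. Taken alone, Dcp2 siRNA left PGAM1 0.38 below GAPDH siRNA, which was not called, and DcpS siRNA left it 1.15 below, which was.

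Other genes stood out in this comparison by the rule for its 5 largest differences. GDAP1, a protein of the outer mitochondrial membrane, had 6.61, 6.17 and 6.19 with GAPDH siRNA, against 4.57 to 6.14 in the 9 other arrays (difference 0.90, adjusted p = 0.00202); it was 0.54 above non-silencing siRNA, which was not called. MT1F, a metal-binding metallothionein with closely similar relatives, had 7.57, 7.24 and 6.96 with GAPDH siRNA, against 5.74 to 6.91 in the 9 other arrays (difference 0.86, adjusted p = 0.0170), and lost its call without GAPDH siRNA array 1 or 2. EMP3, a tetraspan membrane protein, had 10.29, 10.06 and 10.15 with GAPDH siRNA, against 9.04 to 9.80 in the 9 other arrays (difference 0.73, adjusted p = 9.52e-05). EMP3 was also 0.42 above non-silencing siRNA (adjusted p = 0.0431), a call lost without any one of the 6 arrays. GDAP1 was 0.38 above Dcp2 siRNA alone, which was not called. MT1F was called against DcpS siRNA alone (0.99) but not against LOC550643 (0.77) or Dcp2 siRNA (0.81). From non-silencing siRNA, GDAP1 differed by -0.74 with LOC550643 and -0.50 with DcpS siRNA, neither called. EMP3 differed by -0.64 with LOC550643 siRNA (limma adjusted p = 0.00453).

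Many mitotic genes were lower with GAPDH siRNA than with the other siRNAs. Of 22 G2 and M phase genes measured of 26 listed, 11 were called lower and 0 higher, where 2.59% of all genes were called lower, and 20 differences were negative with a median of -0.33. KIF20A, a kinesin of the cleavage furrow, had 8.31, 7.76 and 8.31 with GAPDH siRNA, against 9.02 to 9.75 in the 9 other arrays (difference -1.29, adjusted p = 3.81e-05). KIF23, another mitotic kinesin, differed by -0.81, the proliferation marker MKI67 by -0.61, HMMR by -0.60, CCNB1, which encodes cyclin B1, by -0.53, and PLK1, a mitotic kinase, by -0.39. Leaving out GAPDH siRNA array 1, 2 or 3 left 5, 5 or 6 calls.

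Against non-silencing siRNA the same 22 genes had a median difference of -0.10 with GAPDH siRNA, and KIF20A alone was called, at -0.74 (adjusted p = 0.0269), a call lost without GAPDH siRNA array 2 or non-silencing array 2 or 3. The median was 0.06 with LOC550643, 0.20 with Dcp2 and 0.48 with DcpS siRNA, and 11 genes were called higher with DcpS siRNA, as were 1.76% of all genes. Taken alone, the comparison with DcpS siRNA called 13 of the 22 lower (3.51% of all genes), that with Dcp2 siRNA called 5 lower (1.74%), and that with LOC550643 siRNA called 3 lower (2.48%) and 1 higher (1.61%). GAPDH siRNA gave the lowest of the 4 differences in 16 of the 22 genes. How often this held over all genes was not tested.

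**Figure D5:**
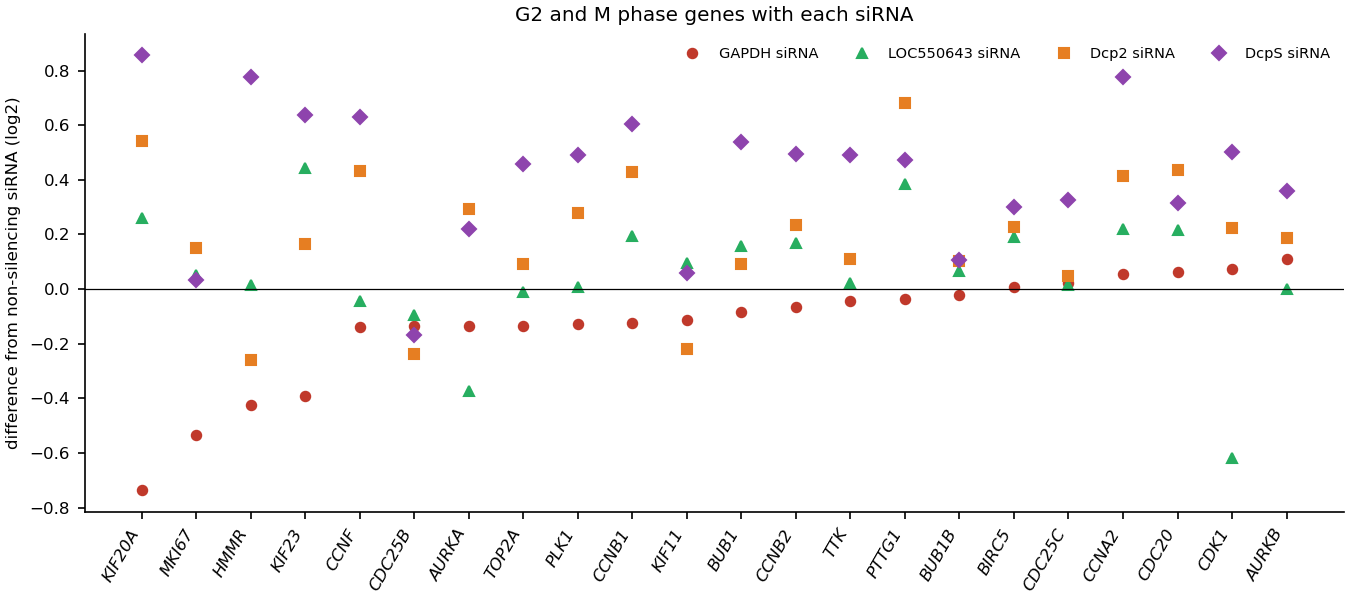
Log2 difference from non-silencing siRNA for the 22 G2 and M phase genes with GAPDH (red circles), LOC550643 (green triangles), Dcp2 (orange squares) and DcpS siRNA (purple diamonds). GAPDH siRNA lies lowest for 16 genes, and DcpS siRNA lies mostly above 0, with list medians of -0.10 and 0.48.

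Chaperone and sterol genes were also called against the other siRNAs. In this comparison 2.59% of all genes were called lower. Of 9 cytosolic chaperones, 4 were lower and 0 higher: HSPA4L at -0.63, HSPH1 at -0.30, and HSPA1A and HSPA1B at -0.74 and -0.75. HSPA1A and HSPA1B are near-identical inducible HSP70 genes, so their probe sets may read the same transcripts. SQLE (-0.50), IDI1 (-0.51) and DHCR7 (-0.30) were the 3 lower of 15 sterol genes, and IDI1 lost this call without GAPDH siRNA array 2. DHCR7, the enzyme of the last step to cholesterol, was at -0.31 from non-silencing siRNA and was not called there (adjusted p = 0.0739). Among 22 G1/S and replication genes MCM5 (0.40) and MCM3 (0.29) were higher and 0 lower, where 1.39% of all genes were called higher. From non-silencing siRNA the median of these 22 was 0.09 with GAPDH and 0.04 with LOC550643 siRNA. It was 0.00 with Dcp2 and -0.14 with DcpS siRNA. Of the 27 immediate early genes, 21 differences from the other siRNAs were negative, with a median of -0.07, and MYC alone was called, at -0.75.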

How the data were processed

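Total RNA was hybridised to Affymetrix whole-transcript arrays. The authors' deposited values are log2 probe set summaries; the base was inferred from their range. RMA and the oligo package were used, per the submitters' processing notes, with versions not given in the sources used here. Of 53617 probe sets, 16098 had 1 gene symbol in the platform annotation, 0 had several and 37519 had none. For the 779 genes with more than 1, the probe set with the highest mean over the 15 arrays was kept, giving 14884 genes. Groups came from the sample titles. Array medians were 4.01 to 4.08, and 0 arrays held values identical to another's; the number of arrays limits the precision.

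Limma 3.58.1 in R 4.3.3 fitted 1 mean per group over all arrays (10 residual degrees of freedom), two-sided, with Benjamini-Hochberg adjustment over all genes within a comparison. It was tested on simulated data. Intervals and SEs are those of the fit. The genes named were the target, the 15 largest called changes in each direction with groups apart (small RNAs and olfactory receptors left out), up to 4 called members of each of 28 lists, and the 5 largest differences in each direction from the mean of the other siRNAs. Other genes named are list members given for comparison and were chosen after their values were seen. Members and lists were chosen with earlier results of these data known. Many list members had no named probe set and were not analysed here. The result of 1 list is not reported here. Alternatives were a replicate block, the compared groups alone, quantile normalization, median centring, a dim-gene filter, the mean of probe sets, array weights, an intensity trend and leaving out each array.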

Additional observations from a re-analysis of the deposited data

Results flagged for a closer look

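Probe sets with no gene symbol in the annotation used here lay outside the comparisons of genes, and some of them differed between the groups. Of 37519 such probe sets, 72 (0.192%) were called with GAPDH siRNA against non-silencing siRNA by the same limma fit, adjusted over these probe sets alone. Of the 72, 17 were higher and 55 lower, and 2939 had an unadjusted p under 0.05. What these probe sets measure was not analysed here.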

How the results depend on the processing

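GAPDH stayed called under all 14 alternatives, with differences of -1.30 to -1.09. Of 41 named genes called against non-silencing siRNA, 23 were called under every alternative and 18 were lost under at least 1. The 297 calls became 44 with only the groups compared, which leaves fewer arrays to estimate the spread, and 139 to 239 when 1 array was left out. The 593 calls against the other siRNAs became 313 to 629 when 1 array was left out. Quantile normalization gave 267 higher and 334 lower calls there, against 207 and 386. RHOB against the other siRNAs (0.07) changed sign without GAPDH replicate 3 (-0.057) and without DcpS replicate 1 (-0.0013), with a range of -0.057 to 0.23 over all arrays left out; the cause was not tested, and neither value was called. Same-numbered arrays of the 2 groups deviated with correlations of 0.03, -0.06 and 0.26, and differently numbered arrays with -0.30 to 0.29. Whether arrays of the same number share a batch was not tested. With the replicate number as a block 313 genes were called, 272 of them shared, and 624 against the other siRNAs. The block changed no call of a named gene; in the immediate early list it gave 4 calls, against 2. The filter on dim genes, array weights and the intensity trend gave 372 to 443 and 707 to 840 calls.

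The 3 arrays a group, the normalization before deposit and the missing detection calls limit these results: dim genes (10 called genes had a mean under 5 log2 units) and small differences (the smallest called was 0.32) are the least certain.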

Other observations

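Gene families were looked at after the values of their members had been seen, and they are given as values. Against non-silencing siRNA, 0.726% of all genes were called higher with GAPDH siRNA and 1.27% lower. Of 28 Mediator subunits measured, MED11 was called higher with GAPDH siRNA than with non-silencing siRNA, and MED1 (-0.40, adjusted p = 0.0207), MED12 (-0.55, adjusted p = 0.0433) and MED12L (-0.51, adjusted p = 0.0415) were called lower. MED12 and MED12L belong to the kinase module of Mediator, as do MED13 (0.13) and MED13L (0.06), which were not called. Of 9 subunits of the endoplasmic reticulum membrane complex, EMC6 and EMC7 (0.36, adjusted p = 0.0404) were called higher and 0 lower. Of 6 chromobox genes, CBX6 was called higher and CBX5, which encodes heterochromatin protein HP1 alpha, lower (-0.61, adjusted p = 0.0218). Of 16 synaptotagmins, SYT17 and SYT3 (-0.54, adjusted p = 0.0476) were called lower. Among 491 zinc finger genes with a ZNF symbol, 2 were called higher and 1 lower.

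Metallothioneins, which bind zinc and copper, had 0 calls by limma among 11 measured against non-silencing siRNA, with 1 under an unadjusted p of 0.05. Against the other siRNAs, MT1F and MT1B (0.41, adjusted p = 0.00726) were called higher, as were 1.39% of all genes. Of the 11 differences, 10 were positive, with a median of 0.11. MT1B had a mean of 3.01 with GAPDH siRNA and 2.60 with the other siRNAs, below the array medians of 4.01 to 4.08. MT1G, MT1H, MT1L and MT1M lay below these medians too, so their differences are uncertain. These genes are closely similar in sequence, so their probe sets may share signal.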
